A study of Mus musculus with 2 samples.

Results

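The collagen genes of the newborn mouse midbrain are described here, chosen by name as the protein-coding genes whose symbol is Col, a type number, the letter a and a chain number. The rule found 44 genes of 21474 protein-coding genes and 43346 gene entries in all. The study holds 1 group of 2 total RNA libraries from whole midbrain at postnatal day 0, of mice of strain B6NTac;B6NCrl/Lap with males and females pooled, made from independent isolates. Replicate 1 was a pool of 15 animals and replicate 2 a pool of unstated size. With no other age, region or genotype to set it against, the design allows levels, ratios between genes within a library and the difference between the 2 isolates, and no test of a condition.

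Collagens are extracellular proteins built from a repeated Gly-X-Y unit, in which glycine opens each unit so that 3 chains can wind into a triple helix. Fibrillar types form cables, type IV forms the sheet of basement membranes, FACITs (fibril-associated collagens with interrupted triple helices) decorate fibrils, and transmembrane types sit in the plasma membrane and can be shed. In brain, most fibrillar collagen is laid down by fibroblasts of the meninges and around vessels, type IV lines blood vessels and the surface of the brain, and a few members are made by neurons.

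The Gly-X-Y repeat can be read in the genes themselves, and the exons below show it for leading fibrillar and type IV members and for a transmembrane member. Each is a coding exon on mm10, read from the transcript, and capitals mark the GG of every codon that opens a triplet of a run.
Col1a1-201, chr11:94944914-94944967, plus strand: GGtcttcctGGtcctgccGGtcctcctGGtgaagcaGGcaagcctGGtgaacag
Col1a2-201, chr6:4524876-4524929, plus strand: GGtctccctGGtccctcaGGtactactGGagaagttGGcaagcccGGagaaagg
Col3a1-201, chr1:45335728-45335781, plus strand: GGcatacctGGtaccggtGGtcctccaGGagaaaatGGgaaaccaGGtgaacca
Col4a1-201, chr8:11245211-11245264, minus strand: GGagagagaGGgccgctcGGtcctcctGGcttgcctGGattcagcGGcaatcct
Col25a1-201, chr3:130517684-130517737, plus strand: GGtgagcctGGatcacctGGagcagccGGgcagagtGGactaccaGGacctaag
Col4a1-201 with an interruption, chr8:11221289-11221439, minus strand: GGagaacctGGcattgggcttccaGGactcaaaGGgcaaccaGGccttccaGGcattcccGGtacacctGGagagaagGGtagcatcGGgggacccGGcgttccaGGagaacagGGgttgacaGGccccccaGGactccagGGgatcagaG
The first 5 are exons of 54 bases from the longest run of their gene, and each holds 6 triplets from its first base to its last. The last, exon 30 of the 52 coding exons of Col4a1, is 151 bases long and shows a run that breaks after its second triplet, with 2 codons before the next run begins.

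Types differed in how long the repeat ran without a break. In the longest annotated coding sequence of each gene, the longest run of uninterrupted triplets had a median of 338 in the 11 fibrillar genes, with a range of 216 to 344, and Col24a1 and Col27a1 were the short ones at 216 and 217. The 6 type IV genes had a median longest run of 43.5 triplets (39 to 66) and 23 to 27 separate runs of at least 3 triplets each, so most of the chain was repeat but it was cut into many pieces. The 9 FACIT genes had a median of 57 triplets (32 to 113) and the 4 transmembrane genes a median of 43.5 (40 to 55). The range of the fibrillar genes did not overlap that of these other types. In the 3 type IX genes the longest run was 113 triplets in each.

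**Figure D1:**
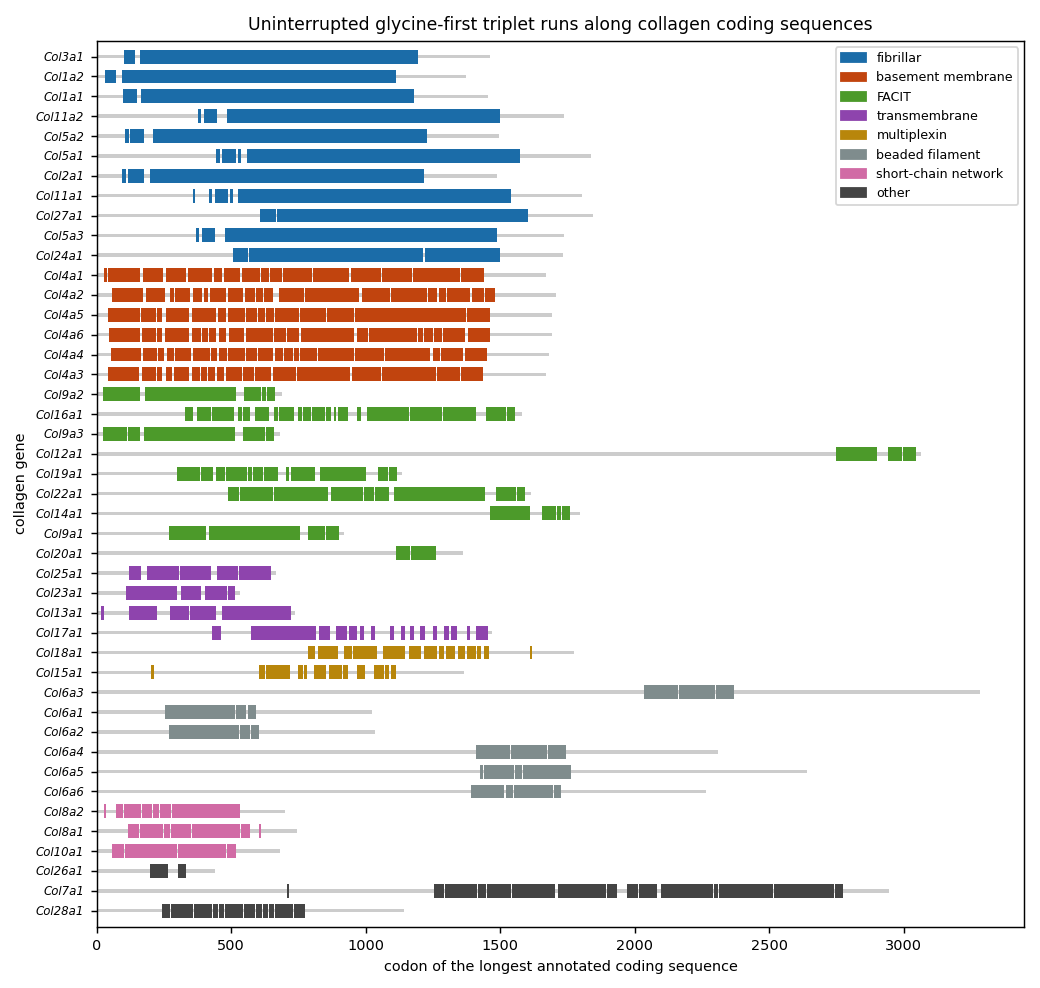
Runs of at least 3 uninterrupted glycine-first triplets (thick bars, coloured by type) along the longest annotated coding sequence of each of 44 collagen genes (thin grey line), in codons from the start. The fibrillar genes carry a long block, of 338 triplets at the median, while the 6 type IV genes carry 23 to 27 shorter runs.

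Exon lengths followed the repeat. Of 1917 internal coding exons of the collagen genes, 63.8% had a length that is a multiple of 9 bases, the length of a triplet, against 13.7% of 156938 internal coding exons of the other protein-coding genes. Exons of exactly 54 bases made up 24.5% of the collagen exons and 0.444% of the others. By type, 54-base exons were 48.6% of 627 fibrillar exons, 26.3% of 414 FACIT exons, 9.33% of 150 transmembrane exons and 4.23% of 284 type IV exons. The multiple of 9 held for 83.9% of fibrillar, 55.1% of FACIT, 70.7% of transmembrane and 47.2% of type IV exons.

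Levels are given as TPM, the share of all transcript molecules corrected for transcript length, as the authors deposited it. Detected means a TPM of at least 1 in both libraries. The libraries held 46685706 and 72779229 estimated counts (replicates 1 and 2). Collagens took 88237 and 120825 of them, or 0.239% and 0.214% of the counts on protein-coding genes. Over detected genes the median log2 ratio of TPM, replicate 1 over replicate 2, was 0.27. In bulk tissue, fewer cells of a type and less RNA per cell cannot be told apart. All 5 listed midbrain markers were detected (En1 at 6.98 and 7.48 TPM in replicates 1 and 2, Pax5 at 13.0 and 9.59), as were the 5 neuronal markers. Detection of markers does not show how cleanly the midbrain was taken.

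Of the 44 collagen genes, 26 were detected, or 59.1%, close to the 53.8% of all protein-coding genes that were. The other 18 were below 1 TPM in both libraries, so no member crossed the threshold between isolates. The median collagen stood at 2.60 TPM in replicate 1 and 2.06 in replicate 2, against 1.91 and 1.61 for protein-coding genes. A few genes held much of the signal. Col4a1, Col3a1, Col1a2 and Col4a2 together held 43.9% of the collagen TPM in replicate 1 and 42.5% in replicate 2, and Col4a1, the highest by mean TPM but just below Col3a1 in replicate 2, ranked 1479 among protein-coding genes by mean TPM. At the threshold, Col4a6 was just inside at 1.09 TPM in both libraries, and Col27a1 just outside at 0.83 and 0.89.

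**Figure D2:**
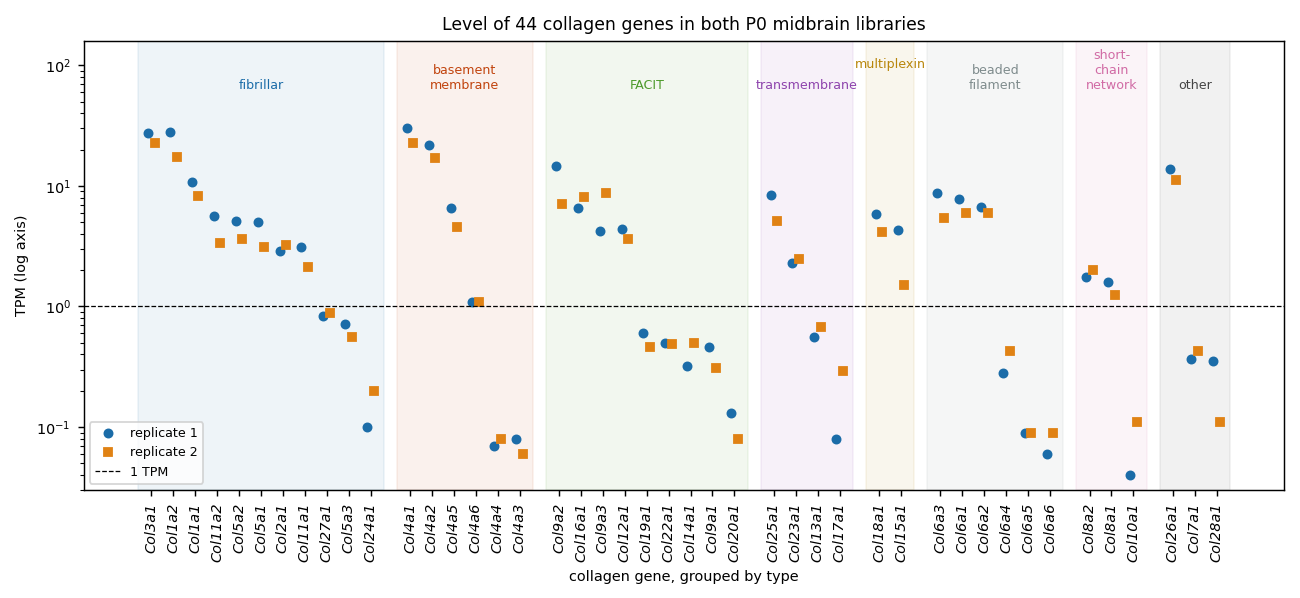
TPM of each of the 44 collagen genes on a log axis in replicate 1 (circles) and replicate 2 (squares), grouped by type and ordered by mean within it, with 1 TPM dashed. Col4a1 is at 30.0 and 22.5 TPM and Col3a1 at 27.4 and 22.7, and 18 genes lie below the line in both libraries.

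Fibrillar collagens were led by the chains of types I and III. Col3a1, whose product forms homotrimers and is abundant in soft tissue and vessel walls, had 27.4 TPM in replicate 1 and 22.7 in replicate 2. Col1a2 had 27.9 and 17.5 TPM, and its partner Col1a1 had 10.7 and 8.20 TPM. The ranges of Col3a1 and Col1a2 overlapped, and both lay above Col1a1 in each library. The type I trimer contains more Col1a1 than Col1a2 chains, yet the transcript ratio ran the other way: Col1a1 was lower than Col1a2 by a log2 ratio of -1.37 in replicate 1 and -1.09 in replicate 2 (mean -1.23 ± 0.20, SD, n = 2).

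Type V, which nucleates type I fibrils, came from Col5a1 (4.99 and 3.09 TPM) and Col5a2 (5.07 and 3.64 TPM), which matched each other within their spread. Col5a3, another chain of the type, stayed below the threshold at 0.72 and 0.56 TPM. Col2a1, the main collagen of cartilage, was detected at 2.91 and 3.26 TPM, and its type XI partners in cartilage fibrils, Col11a1 and Col11a2, at 3.14 and 2.11 TPM and at 5.61 and 3.35 TPM. None of the 6 cartilage markers reached the threshold, and their summed level was 1.05 TPM in replicate 1 and 1.55 in replicate 2, with Acan at 0.35 and 0.42. The 4 bone markers summed to 0.20 and 0.13 TPM, with Dmp1 at 0 counts in both libraries. The minor fibrillar genes were low, Col27a1 at 0.83 and 0.89 TPM and Col24a1 at 0.10 and 0.20. In all, 8 of the 11 fibrillar genes were detected.

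Basement membrane collagen was mainly the Col4a1 and Col4a2 pair. Col4a1 had 30.0 TPM in replicate 1 and 22.5 in replicate 2, and Col4a2 had 21.9 and 17.0 TPM; together these chains form the widespread type IV trimer. The log2 ratio of Col4a1 over Col4a2 was 0.46 and 0.41 (mean 0.43 ± 0.03, SD, n = 2), a tight but modest excess of Col4a1. Col4a5 and Col4a6, X-linked chains of more specialised basement membranes, had 6.53 and 4.55 TPM and 1.09 and 1.09 TPM. Col4a3 (0.08 and 0.06 TPM) and Col4a4 (0.07 and 0.08 TPM), known from the kidney filter, were near 0, with 40 and 61 counts for Col4a3 and 49 and 80 for Col4a4. The order Col4a1, Col4a2, Col4a5, Col4a6 was the same in both libraries, and 4 of the 6 genes were detected.

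All 6 type IV genes lie as head-to-head pairs that start close together on opposite strands. On chromosome 8, Col4a1 begins at 11312826 on the minus strand and Col4a2 at 11312805 on the plus strand, so their annotated ranges overlap by 22 bases, and both were high. On chromosome 1, the starts of Col4a3 (82586921) and Col4a4 (82586849) are separated by 71 bases, and both genes were near 0. On chromosome X, the starts of Col4a5 and Col4a6 are 1309 bases apart, and there the partners differed, with a log2 ratio of 2.48 in replicate 1 and 1.97 in replicate 2 (mean 2.22 ± 0.36, SD, n = 2). The RefSeq promoter windows on GRCm38.p6 run from 250 bases before the gene start to 50 after it. They are printed for Col4a1 of the high pair and Col4a4 of the low pair. The window of Col4a2, from 11312555 to 11312854, overlaps that of Col4a1 only in part. Capitals mark the motifs found.
Col4a1, chr8:11312777-11313076, minus strand: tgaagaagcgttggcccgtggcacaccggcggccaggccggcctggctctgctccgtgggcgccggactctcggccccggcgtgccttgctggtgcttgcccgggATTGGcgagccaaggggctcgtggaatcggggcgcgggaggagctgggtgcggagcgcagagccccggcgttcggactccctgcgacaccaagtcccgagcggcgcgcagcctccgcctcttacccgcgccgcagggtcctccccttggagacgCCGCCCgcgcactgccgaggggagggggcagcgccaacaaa
Col4a4, chr1:82586800-82587099, minus strand: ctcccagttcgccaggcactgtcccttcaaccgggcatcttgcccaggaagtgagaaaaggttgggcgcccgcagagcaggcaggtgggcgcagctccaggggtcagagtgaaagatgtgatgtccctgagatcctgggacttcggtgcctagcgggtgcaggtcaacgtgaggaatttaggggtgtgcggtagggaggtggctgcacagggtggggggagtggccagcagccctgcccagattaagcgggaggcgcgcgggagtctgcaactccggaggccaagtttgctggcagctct
The motifs searched, on both strands, were the CCAAT box (CCAAT), the TATA box (TATAA) and the GC box (GGGCGG). The Col4a1 window holds 1 CCAAT box and 1 GC box, both read on the opposite strand, and the Col4a4 window holds none of the 3.

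Promoter windows were found for 35 of the 44 collagen genes, 38 windows in all; Col1a1, Col2a1, Col4a3, Col5a2, Col9a3, Col12a1, Col14a1, Col22a1 and Col26a1 had no entry. A GC box was present in 60.5% of the collagen windows, against 48.1% of 19931 windows of protein-coding genes and 35.7% of all 32851 windows. It was present in 17 of 22 windows of detected members and 6 of 16 windows of the others. The same split was not made over all protein-coding genes, so it cannot be read as particular to collagens. A CCAAT box was present in 34.2% of collagen windows and 37.8% of protein-coding windows, and a TATA box in 18.4% and 20.9%. For detected and other members, the CCAAT box was in 8 of 22 and 5 of 16 windows, and the TATA box in 3 of 22 and 4 of 16. A match is a string of letters in a window and does not show that a factor binds there.

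FACIT signal came mainly from Col9a2, Col16a1, Col9a3 and Col12a1. Col9a2, a type IX chain, had 14.6 TPM in replicate 1 and 7.03 in replicate 2, and Col9a3 had 4.23 and 8.68 TPM, so the isolates gave opposite orders. Over protein-coding transcripts both gave the same order, with Col9a2 at 8.47 and 5.40 TPM and Col9a3 at 4.02 and 4.44. Col9a1, the remaining chain of the type IX trimer, was far below both at 0.46 and 0.31 TPM. Col16a1 had 6.62 and 8.06 TPM and Col12a1, found in dense connective tissue, 4.36 and 3.63 TPM. Over transcripts of at least 1000 bases their order was reversed, with Col16a1 at 3.55 and 2.91 TPM and Col12a1 at 4.36 and 3.59. Col19a1, known in mouse brain from interneurons, had 0.60 and 0.46 TPM. Col22a1, Col14a1 and Col20a1 lay between 0.08 and 0.50 TPM, and 4 of the 9 FACIT genes were detected.

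Among transmembrane collagens, Col25a1, a neuronal type also known as the collagen-like component of amyloid plaques, had 8.47 TPM in replicate 1 and 5.11 in replicate 2. Col23a1 had 2.28 and 2.47 TPM. Col13a1, which acts at the neuromuscular junction, had 0.56 and 0.68 TPM. Col17a1, the hemidesmosome collagen of skin, had 0.08 and 0.29 TPM, from 30 and 222 counts. The detected members were thus Col25a1 and Col23a1, 2 of 4, and Col25a1 was the higher in each library.

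Of the remaining types, type VI forms beaded filaments and came mainly from its main chains Col6a1, Col6a2 and Col6a3. Col6a1 had 7.80 TPM in replicate 1 and 5.99 in replicate 2, Col6a2 had 6.72 and 5.97, and Col6a3 had 8.65 and 5.41, ranges that overlapped. Over transcripts of at least 1000 bases Col6a3 had 4.03 and 2.72 TPM. The further type VI genes Col6a4, Col6a5 and Col6a6 were all below 0.5 TPM. The multiplexins, proteoglycan collagens of basement membrane zones, were both detected: Col18a1, the source of endostatin, at 5.85 and 4.16 TPM, and Col15a1 at 4.34 and 1.5. The network-forming type VIII was at the low end, Col8a1 at 1.60 and 1.25 TPM and Col8a2 at 1.76 and 2.01, and Col10a1, the marker of hypertrophic cartilage, had 8 and 46 counts.

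Col26a1 had 13.9 TPM in replicate 1 and 11.3 in replicate 2, below Col4a2 in both and, in replicate 1, also below Col9a2. It has the shortest coding sequence of the 44, 440 codons with 23.2% of them in triplet runs. Col7a1, the anchoring fibril collagen of skin, and Col28a1 were below the threshold. The deposited credibility bounds of Col7a1 did not contain its own TPM: 0.37 TPM stood beside bounds of 0.437 and 14.4 in replicate 1, and 0.43 beside 0.456 and 5.42 in replicate 2. The TPM of Col2a1 and Col24a1 in replicate 1 and of Col15a1 in replicate 2 also fell outside its bounds.

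Summed by type, fibrillar genes held the largest share of collagen TPM, 35.8% ± 1.19 (SD, n = 2), and type IV held 24.3% ± 0.20. FACITs followed with 14.3% ± 1.82, type VI with 9.63% ± 0.05 and transmembrane types with 4.62% ± 0.07. The log2 ratio of fibrillar over type IV TPM was 0.58 in replicate 1 and 0.53 in replicate 2. By estimated counts, which weight long transcripts, type IV made up 31.5% of the collagen signal and FACITs 7.94%. Over protein-coding transcripts alone FACITs held 10.9% of collagen TPM. The order of fibrillar first and type IV second was the same on all 3 measures in both libraries. FACITs and type VI did not differ beyond their spread on counts (7.94% ± 0.52 and 8.12% ± 0.25, SD, n = 2). Nor did they over protein-coding transcripts (10.9% ± 1.54 and 10.4% ± 0.02), where FACITs were the lower in replicate 1 (9.83% and 10.4%).

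**Figure D3:**
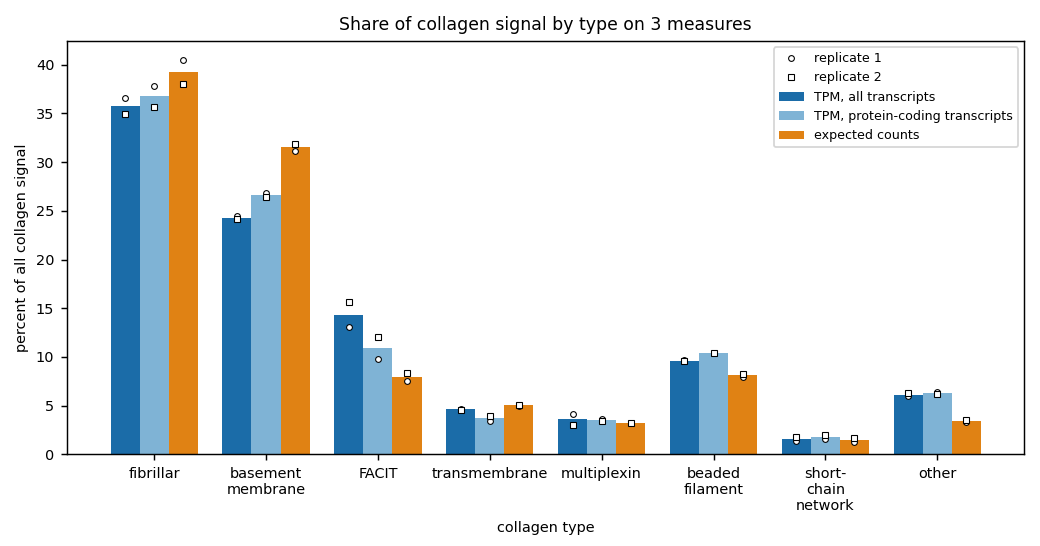
Percent of the summed collagen signal held by each type, as TPM over all transcripts, TPM over protein-coding transcripts and estimated counts. Bars are means of 2 libraries and open symbols are the libraries; fibrillar genes are at 35.8% and type IV at 24.3% of TPM, and FACITs range between 14.3% of TPM and 7.94% of counts.

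Ratios within a library do not depend on the scaling between isolates, and 20 pairs of chains, neighbours or leading types were compared this way, as log2 ratios of TPM + 0.1. A pair was called where both libraries put the first gene 2-fold or more to the same side of the second. That held for 11 pairs, 7 higher and 4 lower, and not for the other 9. Chains known to share a trimer split into matched and unmatched sets. Matched were Col6a1 and Col6a2 (log2 ratio 0.11 ± 0.15), Col6a3 and Col6a1 (0.00 ± 0.21), Col5a1 and Col5a2 (-0.13 ± 0.15), Col8a1 and Col8a2 (-0.39 ± 0.36) and Col4a1 and Col4a2. Over transcripts of at least 1000 bases the mean log2 ratio of Col6a3 over Col6a1 was -1.02. Unmatched were Col4a5 against Col4a6 (2.22 ± 0.36), Col1a1 against Col1a2, Col5a3 against Col5a1 (-2.45 ± 0.26), and Col9a1 against Col9a2 (-4.42 ± 0.42) and against Col9a3 (-3.69 ± 1.04). All of these are SD over 2 libraries. Col11a1 over Col11a2 was -0.82 and -0.64, was not called, and averaged 0.22 over transcripts of at least 1000 bases.

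The ratios of Col3a1 and of Col4a1 over Col1a1 were close in the libraries. Col3a1 over Col1a1 was 1.34 and 1.45 in replicates 1 and 2, and Col4a1 over Col1a1 was 1.48 and 1.45. Not all leading genes were so steady. Col1a2 was just above Col3a1 in replicate 1 (27.9 and 27.4 TPM) and below it in replicate 2 (17.5 and 22.7 TPM). Neighbouring genes need not match: Col3a1 and Col5a2 lie 24614 bases apart on chromosome 1, on opposite strands, and their log2 ratio was 2.41 and 2.60. Unlike the type IV pairs, they face each other with their ends, and their starts are 191744 bases apart. Other pairs turned on 1 library or on the transcripts counted. Col9a3 over Col9a2 was -1.76 in replicate 1 and 0.30 in replicate 2, and -1.06 and -0.28 over protein-coding transcripts. Col18a1 over Col15a1 was 0.42 in replicate 1 and 1.41 in replicate 2, and its mean moved to 1.28 over protein-coding transcripts, a call in both libraries. Col25a1 over Col23a1, called at 1.85 and 1.02, was 1.03 and 0.32 over protein-coding transcripts and lost its call. With a pseudocount of 1, Col25a1 over Col23a1 and Col27a1 over Col24a1 lost theirs.

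**Figure D4:**
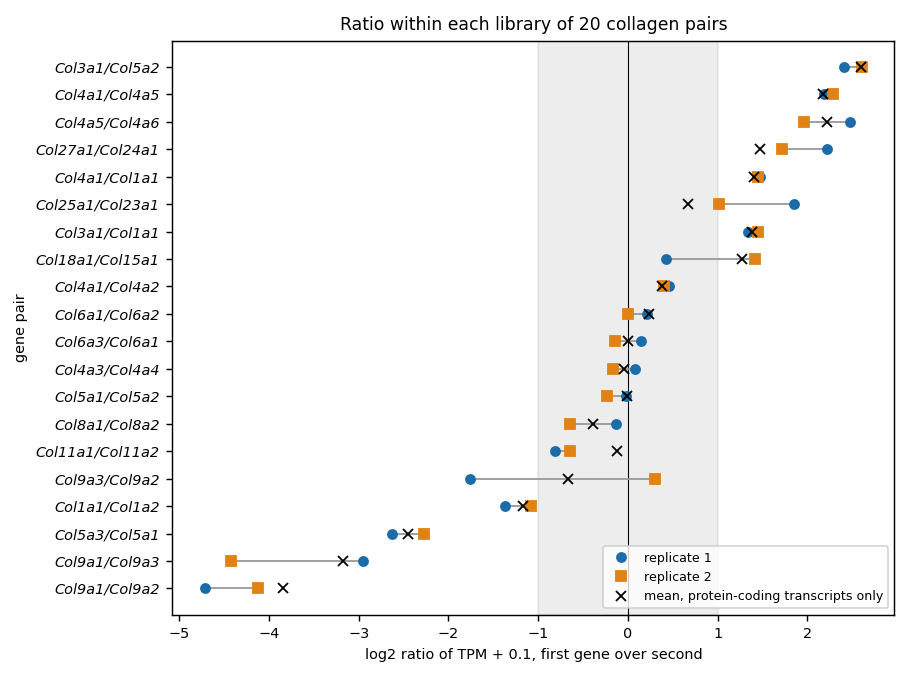
Log2 ratio of TPM + 0.1 of the first gene over the second in replicate 1 (circles) and replicate 2 (squares) for 20 collagen pairs, with crosses for the mean over protein-coding transcripts and the range within 2-fold shaded. Col6a1 over Col6a2, Col6a3 over Col6a1 and Col5a1 over Col5a2 sit near 0, and the libraries lie farthest apart for Col9a3 over Col9a2, at -1.76 and 0.30.

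The leading transcripts behind these levels were mostly annotated as protein-coding, though such a transcript need not be full length. By the authors' percent of gene TPM, the leading transcript was the same in both libraries for 23 of the 26 detected collagens, against 87.3% of detected protein-coding genes. It was protein-coding in both for 25 of them, against 91.6%. By estimated counts it was the same for 26 of 26, against 91.7%, and coding in all 26, against 95.7%. By percent of TPM the shared share, 88.5%, is near the background. The exceptions by percent were Col2a1, Col4a5 and Col16a1. Col2a1 was led in replicate 1 by its coding transcript Col2a1-201, with 100% of TPM, and in replicate 2 by the retained-intron transcript Col2a1-209, of 613 bases, with 35.3% of TPM but 54.4 of 1125 counts. Col16a1 was led in replicate 1 by Col16a1-210 with 36.1% and in replicate 2 by Col16a1-208, of 383 bases, with 34.7% on 40.8 counts.

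Short annotated transcripts carried much TPM on few counts in several members. Col6a3-207, of 476 bases, held 53.3% and 49.8% of Col6a3 TPM on 69.3 and 74.9 counts, while Col6a3-202, of 9001 bases, held 85.9% and 90.3% of the counts. Col12a1-204, of 1784 bases, held 41.5% and 46.6% of Col12a1 TPM but 11.0% and 12.7% of its counts. Col12a1-201, of 11511 bases, held 68.4% and 71.1% of them. Col15a1-206, a processed transcript of 404 bases, held 43.7% of Col15a1 TPM in replicate 1 on 18.1 counts and none in replicate 2. Over transcripts of at least 1000 bases, Col15a1 had 2.05 and 1.49 TPM. The difference of Col9a3 between libraries had the same shape: Col9a3-206, a retained-intron transcript of 644 bases, held 34.3% in replicate 2 and 0 in replicate 1, and over protein-coding transcripts Col9a3 had 4.02 and 4.44 TPM.

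Other members had a long alternative transcript. Col25a1-202, of 6701 bases, held 56.2% and 57.6% of Col25a1 TPM, and Col25a1-204, annotated as a target of nonsense-mediated decay, 42.1% and 39.3%. Col25a1-201, the transcript whose exon is printed above, held 0 and 2.93%. Col19a1 had more TPM on a processed transcript, Col19a1-203, at 52.1% and 55.0%, than on its coding transcript. Col18a1 was mainly the shorter coding form Col18a1-202 (88.6% and 78.3%), with the longest form Col18a1-201 at 4.29% and 16.5%. Col4a5 divided between Col4a5-202 (37.5% and 65.6%) and the shorter Col4a5-204 (45.1% and 34.4%). For detected collagens the median share of counts on transcripts not annotated as protein-coding was 1.15% and 0.418%, against 0.212% and 0.105% for detected protein-coding genes. Such transcripts include some of unknown type, with no entry in the annotation, which held 2.24% of Col18a1 counts in replicate 1.

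Between the isolates most collagens differed little once counts were scaled. The log2 ratio of replicate 1 over replicate 2 on scaled counts had a median of 0.09 over the 44 members, and 26 were above 0 (28 when scaled by library totals). Of protein-coding genes 48.9% were above 0, with a median of -0.01. Past 2-fold, 1 member was higher in replicate 1, against 5.82% of 17574 genes, and 2 were lower, against 7.76%. In either direction these were 3 members against 13.6% of genes. These shares cover genes of every type, of which 15253 were protein-coding, as all collagens here are. They are thus not a matched background, and no contrast is drawn from them. Col28a1 was the higher one, with 105 counts in replicate 1 and 60 in replicate 2 (log2 ratio 1.41). Col17a1 had 30 and 222 counts (-2.27) and Col10a1 8 and 46 counts (-1.87). All 3 were below the detection threshold, so no detected collagen differed by 2-fold on this scale.

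The type IV genes were the closest, with log2 ratios between -0.27 and 0.17, and 9 of 11 fibrillar genes were above 0, up to 0.54 for Col2a1, whose log2 ratio was -0.16 on TPM as deposited. On TPM as deposited, the members past 2-fold were Col15a1, Col9a2 and Col28a1 higher and Col9a3 and Col17a1 lower. Marker lists differed between the libraries too. The 8 endothelial markers had a median log2 ratio of 0.27 and a summed TPM of 67.6 in replicate 1 and 46.8 in replicate 2. The 10 meningeal fibroblast markers had a median of -0.03 (61.4 and 52.0 TPM, 9 detected) and the 9 mural markers 0.09 (60.9 and 48.9 TPM, 7 detected). The choroid plexus list was lower in replicate 1 (median -0.76, 35.0 and 182 TPM, 3 of 6 detected, Ttr at 14.4 and 163). Otx2, which is also on the midbrain list, was among those detected at 18.3 and 15.9 TPM. It went the other way with a log2 ratio of 0.12, and the other members lay between -3.77 (Ttr) and -0.19 (Kl). Skeletal muscle was lower in replicate 1 too (median -1.14, 3.34 and 6.70 TPM, 1 of 6 detected). Cartilage, with 0 of 6 detected, was mixed, and its median of -0.64 rests on 4 markers. Acan, Cnmd and Ucma were lower in replicate 1 and Matn3 was at 0.08. Matn1 (10 and 2 counts) and Comp (7 and 5) had too few counts for a ratio. The part of these lists in the ratios of Col17a1 and Col10a1 was not tested.

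**Figure D5:**
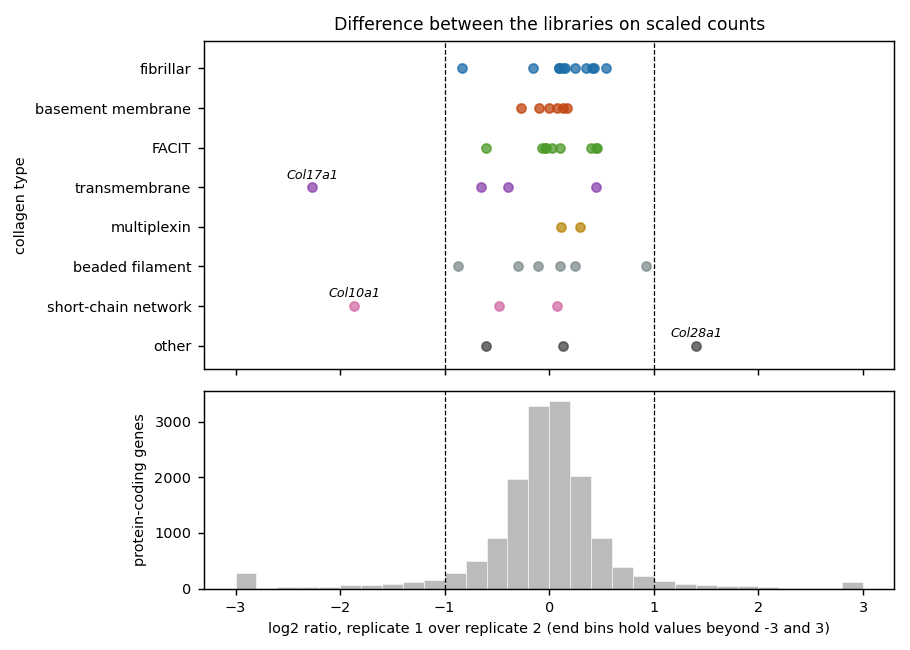
Log2 ratio of replicate 1 over replicate 2 on scaled counts for each collagen by type (top) and for protein-coding genes whose counts sum to 20 or more (bottom, number of genes per bin), with 2-fold dashed. Col28a1 lies beyond 2-fold on the right and Col17a1 and Col10a1 on the left; type IV genes lie between -0.27 and 0.17.

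The genes that make, process and read collagen were present to a degree that differed by role. Of 75 listed genes 57 were detected, where 53.8% of protein-coding genes were. Propeptide processing (4 of 8), receptors (5 of 11) and degradation (5 of 10) were not above that share, and the other roles were. The list was chosen with earlier results of these data known, so the comparison is descriptive only. The 10 genes of prolyl hydroxylation, which stabilises the helix, included 9 detected, led by the cyclophilin Ppib (53.3 and 35.8 TPM) and P4hb (34.3 and 30.2), the shared subunit of prolyl hydroxylase. P3h2, a hydroxylase of type IV, was at 0.43 and 0.23 TPM. All 6 lysyl hydroxylase and glycosyltransferase genes were detected, led by Colgalt1 (16.4 and 14.6). All 6 chaperone and export genes were too: Serpinh1, the collagen chaperone HSP47, had 27.8 and 26.2 TPM, and Mia3, which loads procollagen into carriers, 29.2 and 24.1.

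After secretion, propeptides are trimmed and chains crosslinked. Of 8 processing genes 4 were detected, led by the C-proteinase Bmp1 (8.37 and 7.81 TPM), and Adamts2, an N-proteinase, had 3.82 and 2.33. Of 5 lysyl oxidases 4 were detected at 1.10 to 3.03 TPM, and Loxl4 was at 0.05 in both. Basement membrane partners were all detected, 11 of 11, led by Sparc (47.0 and 48.6), a type IV binding protein. Pxdn, whose product crosslinks type IV, had 17.6 and 14.8 TPM, and Nid1 13.2 and 12.5. Fibril organizers were detected in 7 of 8 cases, led by Fn1 (21.6 and 13.0) and Dcn (10.4 and 9.62).

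Receptors were led by Adgrg1, Ddr1 and Itgb1. Adgrg1, the type III collagen receptor of developing cortex, had 21.8 TPM in replicate 1 and 22.7 in replicate 2, Ddr1 had 17.7 and 18.4, and Itgb1 15.3 and 10.3. Of the collagen-binding integrin partners, Itga1 had 1.52 and 0.98 TPM, and Itga2, Itga10 and Itga11 were all below 0.7 TPM. Gp6, the platelet receptor, had 0 counts in both libraries, where 3 counts would be 0.0643 and 0.0412 CPM (counts scaled by the library total). Of 11 receptor genes 5 were detected. Of 10 degradation genes 5 were detected, the inhibitors Timp2 (45.1 and 39.8 TPM) and Timp3 (28.2 and 19.3) above the protease Mmp14 (9.53 and 7.59). The collagenases Mmp8 and Mmp13 had 1 and 0 counts and 18 and 0 counts. Of the 72 listed genes with enough counts for a ratio, 1 was past 2-fold between libraries, against 13.6% of all genes, protein-coding or not. That share is not a matched background, and no contrast is drawn from it. The listed gene past 2-fold was Timp1, lower in replicate 1 (log2 ratio -1.33, 37 and 143 counts). Gp6, Mmp8 and Mmp13 had no ratio.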

How the data were processed

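Total RNA was depleted of ribosomal RNA and read as stranded pairs, per the labels. The authors quantified genes and transcripts on mm10 with GENCODE M4, per the notes deposited with each library. The aligner and quantifier were not given in the sources used here. Expected counts, deposited by the authors, divide reads that fit several features and were rounded for ratios. The deposited TPM and FPKM values correct for effective length, and short transcripts gain most by that. The percent of gene TPM per transcript and the bounds of TPM are the authors' too. Rows that name no gene held 1.21% and 1.06% of counts in replicates 1 and 2.

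Symbols, coordinates and coding sequences came from GENCODE M21 on GRCm38, which matched 42462 of 43346 gene identifiers, and promoters from RefSeq (GRCm38.p6). Ratios between libraries used trimmed-mean (TMM) scaling in edgeR 4.0.16 (R 4.3.3), a prior count of 0.5 and genes whose counts sum to 20 or more; DESeq2 1.42.0 size factors were an alternative. This step was tested on simulated data. Pairs used TPM + 0.1, called at 2-fold in both libraries. Means and SD cover 2 isolates, and no p-value was computed, since 1 group of 2 libraries has nothing to test against. Intervals and floors of 3 counts cover counting error only. A chi-square per degree of freedom of 53.8 over 17574 genes showed different libraries. Every collagen is named; of the machinery list, up to 4 of the highest genes per role and members below 1 TPM. The members and lists were chosen with earlier results of these data known. Alternatives were other thresholds, pseudocounts, units, scalings, transcript sets and each library alone. Figures used matplotlib 3.10.9 and tables pandas 2.3.3.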

Additional observations from a re-analysis of the deposited data

How the results depend on the processing

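Of 49 alternative values, 36 stayed within the spread between libraries or within 1.5 times a count, and 13 moved. Some of the 36 could not have moved. For the fibrillar over type IV ratio and the shares, a library alone always lies within the SD of 2 libraries. FPKM is proportional to TPM within a library, so it could not move them either. None of the summary results changed sign, but counts and shares cannot, so only the fibrillar over type IV ratio could have. Among pairs, the mean log2 ratio of Col11a1 over Col11a2, -0.73, was 0.22 over transcripts of at least 1000 bases, and that of Col9a3 over Col9a2, also -0.73, was 0.30 without replicate 1; neither pair was called in both libraries. The near-zero ratios of Col6a3 over Col6a1 and Col4a3 over Col4a4 also changed sign under some settings, with Col6a3 over Col6a1 at -1.02 over transcripts of at least 1000 bases. By estimated counts, the log2 ratio of fibrillar over type IV was 0.31, the FACIT share 7.94% and the transmembrane share 5.03%. Over protein-coding transcripts these were 0.46, 10.9% and 3.69%, and over transcripts of at least 1000 bases, an alternative chosen after seeing the data, 0.48, 10.7% and 5.16%. With types VII, XV and XVIII counted as basement membrane, the ratio was 0.35; with members of a mean TPM of at least 1 only, the transmembrane share was 4.34%. Collagens past 2-fold between libraries were 5 on TPM as deposited and 1 with a summed count of at least 200, where fewer genes were tested. Leaving out each library in turn gave 26 to 26 detected collagens, 59 to 60 detected machinery genes, a fibrillar over type IV ratio of 0.53 to 0.58, a FACIT share of 13.0% to 15.6%, a transmembrane share of 4.56% to 4.67% and 12 to 12 called pairs. With TPM rescaled over protein-coding genes, which held 22.4% and 19.8% of all TPM in replicates 1 and 2, 35 collagens reached the threshold. No paired analysis was possible because the labels give 1 group. Members with under 100 counts in a library, such as Col10a1, are limited by depth.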
